A study of Mus musculus with 9 samples.

Results

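The type 2 cytokine axis was followed through 9 genes in Tfh cells (T follicular helper cells, which help B cells in germinal centres) from Peyer's patches, the lymphoid organs of the mouse small intestine. The genes were chosen by symbol out of the 54146 in the table. They are the cytokine genes Il4, Il5, Il13 and Csf2, the receptor gene Il4ra, the transcription factor genes Stat6, Gata3 and Nfil3, and the surface receptor gene Cd200r1. All 9 were found, and 7 passed the filter on low counts, with at least 16 counts in every library. Il5 and Il13 did not. The RNA came from cells carrying CD4, CXCR5 and PD1, and 9 libraries were compared. WT/mut cells (5 libraries, replicates 6 to 10) carried 1 mutant and 1 wild-type allele of Tgfbr1, a subunit of the TGF-beta receptor, and WT cells (4 libraries, replicates 1, 3, 4 and 5) came from wild-type littermates. No treatment, strain, sex or age is given in the labels, nor which mutation this is, in which cells of the animal it lies, or that each library came from its own animal. P-values therefore measure the spread between these libraries, which may be technical in part.

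Interleukin 4 is a cytokine by which Tfh cells can direct antibody class switching in germinal centre B cells, and together with interleukins 5 and 13 it defines type 2 helper responses. It binds the receptor chain encoded by Il4ra, whose signal activates STAT6, and in type 2 helper cells STAT6 induces GATA3, which opens the cytokine locus. Tfh cells can make interleukin 4 with little GATA3, and interleukins 5 and 13 are largely products of other type 2 cells.

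The 4 cytokine genes lie within 1 stretch of chromosome 11 (positions are those of GENCODE M21 on GRCm38, the assembly of the mm10 build). Il4 spans 53602982 to 53618669 on the minus strand, Il13 53631324 to 53634702 on the same strand, Il5 53720794 to 53725106 on the plus strand, and Csf2 54247271 to 54249667 on the minus strand. The Il13 start is 16.0 kb and the Il5 start 102.1 kb from that of Il4, and the gene Rad50 lies between Il13 and Il5. The other members lie elsewhere, Il4ra on chromosome 7 (125552120 to 125579474, plus strand), Stat6 on 10 (127642986 to 127660957, plus), Gata3 on 2 (9857078 to 9890034, minus), Nfil3 on 13 (52967209 to 52981073, minus) and Cd200r1 on 16 (44765736 to 44794978, plus). The sequences before the starts of Il4, Il13 and Il5 are shown because these neighbours had very different read counts in the same cells. They are RefSeq sequences of GRCm38.p6, on the strand of each gene, and they stop at the base before the GENCODE start. For Il4, which has 2 RefSeq windows, that of the start nearest to GENCODE's is shown. They are chr11:53618670-53618915 (minus strand) for Il4, chr11:53634703-53634952 (minus strand) for Il13 and chr11:53720544-53720793 (plus strand) for Il5. Capitals mark the core letters GGAAA bound by NFAT factors, which carry the T cell receptor signal to cytokine genes, or their complement TTTCC.
Il4: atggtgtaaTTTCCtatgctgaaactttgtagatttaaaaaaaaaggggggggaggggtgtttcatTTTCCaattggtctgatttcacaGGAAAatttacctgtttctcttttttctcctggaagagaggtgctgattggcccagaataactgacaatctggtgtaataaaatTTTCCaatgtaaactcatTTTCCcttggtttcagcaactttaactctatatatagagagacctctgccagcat
Il13: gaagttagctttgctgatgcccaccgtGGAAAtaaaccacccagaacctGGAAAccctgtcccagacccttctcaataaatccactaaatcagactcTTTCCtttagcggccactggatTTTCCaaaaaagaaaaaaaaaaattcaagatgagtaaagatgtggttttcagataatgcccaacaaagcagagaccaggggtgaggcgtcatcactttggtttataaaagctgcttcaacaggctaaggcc
Il5: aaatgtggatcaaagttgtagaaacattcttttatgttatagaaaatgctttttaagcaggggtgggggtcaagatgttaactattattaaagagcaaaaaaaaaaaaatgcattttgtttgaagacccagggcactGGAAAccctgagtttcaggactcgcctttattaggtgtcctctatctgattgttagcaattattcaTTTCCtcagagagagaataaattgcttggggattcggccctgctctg
Letters were searched on both strands in the 250 bases before the RefSeq start, and positions count back from it. The Il4 window held 5 NFAT cores, a number reached in 0.39% of the 32851 windows of that length, the Il13 window held 4 (1.59%) and the Il5 window 2 (21.4%). At position -167 the Il4 window also held the palindrome preferred by STAT6 (TTC and GAA with 4 bases between them), which is found in 5.85% of windows and here overlaps the NFAT core at -161. It held the MAF half-site TGCTGA 3 times (present in 16.1% of windows), at -234, -120 and -47, and MAF is a known activator of Il4. In the other RefSeq window of Il4, which is not shown, the NFAT core, this palindrome and the MAF half-site were all absent. The SMAD core CAGAC, a binding element of the TGF-beta signal transducers, was present once in the Il4 window shown (at -174), 2 times in that of Il13 and not in that of Il5, against 42.2% of windows. The GATA form AGATAA (9.99% of windows) was found once for Il13 at -81 and not for Il4 or Il5, and the AP-1 element TGANTCA (6.75%) was in none of the 3. Letter matches describe these windows and are not binding sites.

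Total counts lay between 29488783 and 43872686 per library. T cell markers were abundant in every library (10 genes, summed level 8590 to 9700 CPM, which are counts scaled to library size, in WT/mut and 9330 to 11500 CPM in WT). The Tfh markers were too (10 genes, 5990 to 6390 and 6490 to 7490 CPM), though their sum was lower in every WT/mut library. At an unadjusted p under 0.05, 6.46% of all genes were lower and 5.69% higher, the background for the marker counts here. Of the 10 Tfh markers, 4 were lower and 1 higher at that level. Of the 10 T cell markers, 2 were lower and 0 higher. WT/mut replicate 7 stood apart with 30143 genes detected, against 17904 to 20264 in the other libraries, so member values without it are given below. Tgfbr1, the mutated gene, averaged 73.6 ± 16.5 CPM (SD, n = 5) in WT/mut against 77.0 ± 20.2 CPM (SD, n = 4) in WT cells, with a log2 fold change of -0.07 ± 0.21 (SE, edgeR adjusted p = 0.921), and counts per gene do not separate its alleles. Markers of B cells were higher on average in WT/mut (12 genes, 277 to 652 against 136 to 360 CPM summed, 3 of 12 higher at an unadjusted p under 0.05). So were those of plasma cells (12 genes, 2270 to 3290 against 2110 to 2660 CPM, 7 of 11 tested higher at that level), and edgeR called none of the markers. Most of the plasma cell sum was Ighm (1725 and 1947 CPM on average in WT/mut and WT), and without it the other 11 genes summed to 630 to 1600 CPM in WT/mut and 326 to 577 CPM in WT, with no overlap. Among them Igha averaged 401 against 41.1 CPM and Jchain 164 against 22.6 CPM. Those of myeloid cells spread widely in both groups (12 genes, 61.9 to 325 and 64.7 to 193 CPM), and those of epithelial cells were lower on average in WT/mut (12 genes, 46.4 to 368 against 168 to 657 CPM, 1 lower at an unadjusted p under 0.05).

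With edgeR's quasi-likelihood test and adjustment over all 15521 tested genes, 0 of the 7 tested members passed the threshold of 0.05, against a background of 0.122% of all tested genes called in either direction (0.0322% higher, 0.0902% lower). At an unadjusted p under 0.05 there were 5 of 7 (3 higher and 2 lower in WT/mut), where 12.2% of all genes reached that level. For 4 of the 7 the lowest library of one group lay above the highest of the other in CPM, Il4 and Il4ra lying higher in WT/mut and Cd200r1 and Csf2 lower, where 4.46% of all genes were so separated (2.09% higher, 2.38% lower). DESeq2 called Il4, Csf2 and Cd200r1, against 1.86% of the genes for which it gave an adjusted p. The members' median log2 fold change was 0.12, and that of all tested genes was 0.0015. The genes were chosen with earlier results of these data known, so these shares describe them and do not test them as a group.

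**Figure D1:**
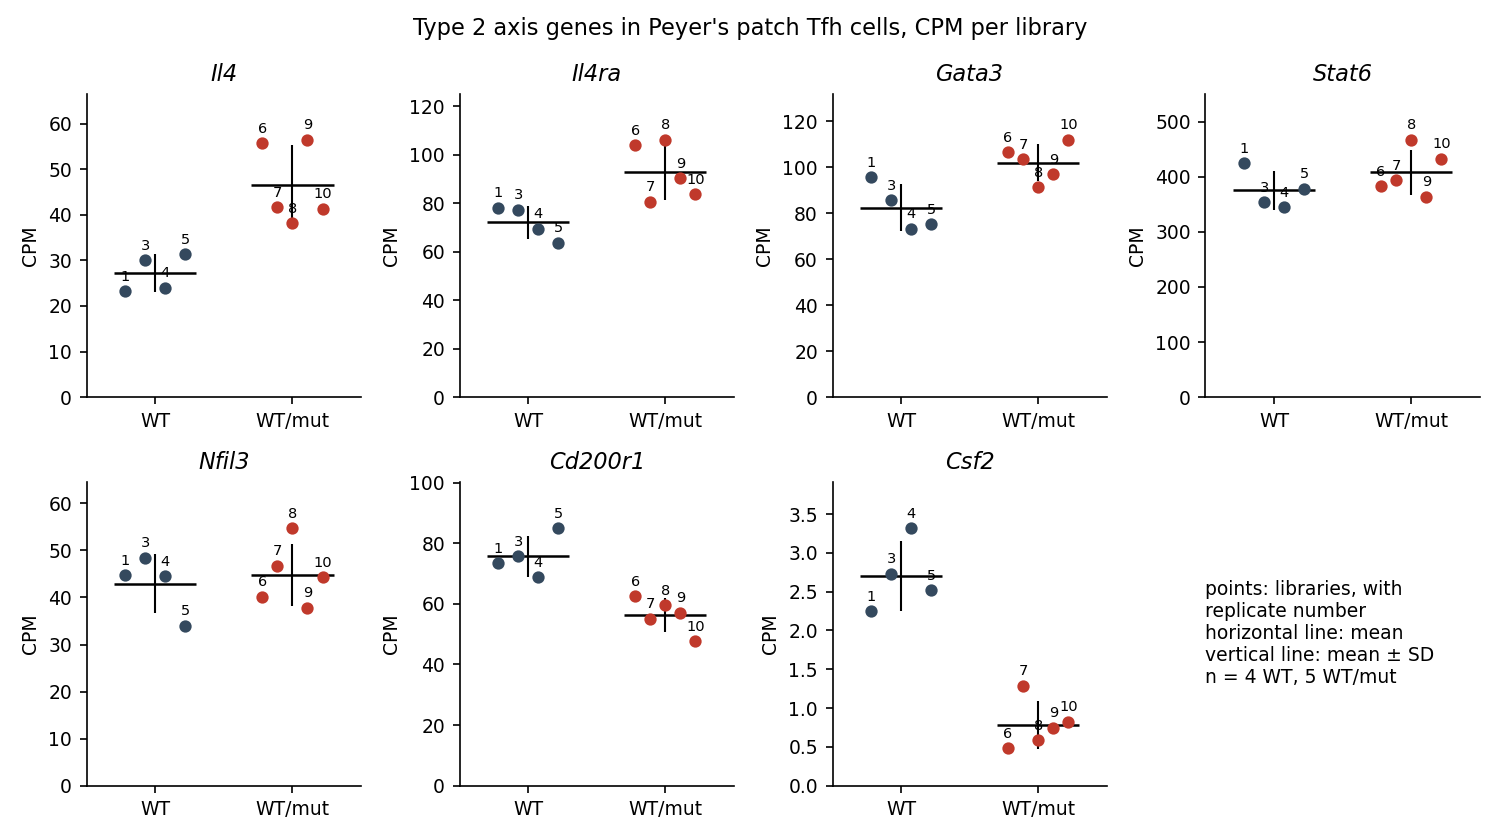
CPM of the 7 tested genes in each library (points, numbered by replicate), with group mean (horizontal line) and SD (vertical line), 4 WT and 5 WT/mut libraries per panel and all axes from 0. The groups are separate for Il4, Il4ra, Cd200r1 and Csf2 and overlap for Gata3, Stat6 and Nfil3.

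The mean level of Il4 was higher in WT/mut, a difference that DESeq2 called and edgeR did not. Its level was 55.7, 41.6, 38.1, 56.4 and 41.3 CPM in WT/mut replicates 6 to 10, and 23.2, 30.1, 23.98 and 31.4 CPM in WT replicates 1, 3, 4 and 5. All 5 WT/mut libraries stood above the highest WT library, and within WT/mut replicates 6 and 9 were well above the other 3. The means were 46.6 ± 8.7 CPM (SD, n = 5) and 27.2 ± 4.2 CPM (SD, n = 4), a 1.72-fold difference. The log2 fold change of 0.78 ± 0.16 (SE) did not pass with edgeR (adjusted p = 0.106, rank 76 of all genes by p), did not pass with limma-voom (adjusted p = 0.128) and passed with DESeq2 (adjusted p = 0.0014). On simulated counts of 15521 genes for this comparison, edgeR recovered 16 of 50 genes changed 1.5-fold and 39 of 50 changed 2-fold. The simulation also changed 50 genes 4-fold and 50 genes 8-fold, and it gave 158 calls, against 19 in the data. The adjusted threshold was therefore easier to pass there, and these numbers may overstate the recovery in the data. Without WT/mut replicate 7 the value was 0.82 ± 0.17 (adjusted p = 0.187). In a bulk sample more cells with Il4 and more Il4 RNA per cell cannot be told apart.

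Other cells that make Il4 were looked for by their markers. Of 11 mast cell and basophil markers, 2 (Mcpt2 and Mcpt8) had no count in any library, and their summed level was 1.51 to 4.63 CPM in WT/mut and 1.13 to 2.35 CPM in WT. The histamine enzyme gene Hdc, the only tested gene of the list, had its lowest count in WT/mut replicate 6 (21, against 28 to 101 in the others). The mast cell protease gene Cpa3 had 77 counts in WT/mut replicate 6 and at most 4 elsewhere, and Mcpt1 and Mcpt4 had 21 each in that library, which was among the 2 highest in Il4, while Ms4a2 had none there. The part of these cells in the Il4 level was not tested. Of 6 NKT cell markers, the factor gene Zbtb16 had at most 17 counts in any library. The receptor segment Trav11 was detected only in WT/mut replicate 7, with 95 counts. Klrb1c reached 53 counts (WT replicate 1), Fasl 262 (WT/mut replicate 7) and Xcl1 645 (WT replicate 3). The sum of the 6 overlapped between the groups (503 to 581 CPM in WT/mut, 444 to 637 CPM in WT). Most of it was Il2rb (529.6 and 516.7 CPM on average). The part of NKT cells in the Il4 level was not tested. The B cell markers were highest in WT/mut replicate 9 (652 CPM), where Il4 was also highest. With their share as a covariate Il4 stood at 0.59 ± 0.20 (adjusted p = 0.463), and with the plasma cell marker share at 0.93 ± 0.20 (adjusted p = 0.281). With that share taken without Ighm it was 0.91 ± 0.32, at an adjusted p of 1, where the groups do not overlap in the covariate and edgeR called 0 genes of all tested (444 at an unadjusted p under 0.05).

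Il5 and Il13, the cytokines of eosinophil and mucus responses, were at or near the limit of detection. Il5 had 29 counts in WT/mut replicate 6, or 0.872 CPM, and none in the other 8 libraries. Over the 4 WT libraries a count of 0 allows up to 0.0199 CPM. Il13 had 1 count, in WT/mut replicate 7, which is under the floor of 3 counts. Neither gene was tested. WT/mut replicate 6 also had the highest summed level of 7 eosinophil markers (8.09 CPM, against 0.323 to 3.45 CPM in the other libraries), with 213 counts of the chemokine receptor gene Ccr3, while the eosinophil peroxidase gene Epx had none there. Ccr3 alone stood at 6.4 CPM in that library. Markers of type 2 innate lymphoid cells (8 genes) summed to 29.5 CPM there. That was the highest in WT/mut (24.1 to 29.5 CPM) and within the WT range (24.1 to 36.9 CPM). The part of either cell type in the Il5 counts was not tested. Of the exon bases of Il5, 27.1% overlap a gene on the opposite strand, which had no count.

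Csf2, the gene of the myeloid growth factor GM-CSF, was scarce and lower in WT/mut. The counts were 16, 41, 22, 21 and 30 in WT/mut replicates 6 to 10, and 71, 114, 114 and 109 in WT replicates 1, 3, 4 and 5. As levels these were 0.481, 1.29, 0.584, 0.748 and 0.822 CPM, and 2.25, 2.73, 3.32 and 2.52 CPM. The highest WT/mut library was below the lowest WT library, and at these counts the 95% Clopper-Pearson interval of a single library is wide, for example 0.282 to 0.801 CPM of the unscaled total in WT/mut replicate 6. It covers counting error only. The means were 0.784 ± 0.311 CPM (SD, n = 5) and 2.70 ± 0.45 CPM (SD, n = 4), 3.44-fold lower in WT/mut. The log2 fold change was -1.78 ± 0.42 (edgeR adjusted p = 0.174, DESeq2 adjusted p = 0.00803), and -2.03 ± 0.41 without WT/mut replicate 7 (edgeR adjusted p = 0.154). Of the exon bases of Csf2, 12% overlap an antisense gene, which had 0 counts in WT/mut and 1 in WT, and the library kit does not mark the strand.

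Il4ra encodes the receptor chain that T cells, B cells and myeloid cells share for interleukins 4 and 13. It stood at 104, 80.7, 106, 90.3 and 83.7 CPM in WT/mut replicates 6 to 10 and at 78.1, 77.3, 69.5 and 63.8 CPM in WT replicates 1, 3, 4 and 5. The groups did not overlap, but WT/mut replicate 7 and WT replicate 1 were close. The means were 93.0 ± 11.6 CPM (SD, n = 5) and 72.2 ± 6.8 CPM (SD, n = 4), and the log2 fold change of 0.37 ± 0.12 did not pass (edgeR adjusted p = 0.290, DESeq2 adjusted p = 0.0997). It was 0.41 ± 0.12 without WT/mut replicate 7 (edgeR adjusted p = 0.414) and 0.36 ± 0.15 with the B cell marker share as a covariate (edgeR adjusted p = 0.627). Of its exon bases, 9.5% overlap an antisense gene with 2 counts in WT/mut and 0 in WT. Myeloid marker RNA was highest in WT/mut replicate 6 (325 CPM), which was close to the top in Il4ra, and the part of these cells was not tested.

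The transcription factors differed less. Gata3, the lineage factor of type 2 helper cells, was at 107, 104, 91.4, 97.0 and 112 CPM in WT/mut replicates 6 to 10 and at 95.8, 85.6, 73.4 and 75.2 CPM in WT replicates 1, 3, 4 and 5. WT replicate 1 lay within the WT/mut range and the other 3 below it, so 4 of 5 WT/mut libraries exceeded every WT library. The means were 102 ± 8.1 CPM (SD, n = 5) and 82.5 ± 10.4 CPM (SD, n = 4), with a log2 fold change of 0.31 ± 0.11 (edgeR adjusted p = 0.325) and 0.30 ± 0.12 without WT/mut replicate 7 (edgeR adjusted p = 0.541). With the B cell marker share as a covariate Gata3 was at 0.45 ± 0.12 (edgeR adjusted p = 0.301). Stat6, which carries the interleukin 4 signal to the nucleus, ranged from 364 to 467 CPM in WT/mut and from 345 to 425 CPM in WT. Its ranges overlapped over most of their length (0.12 ± 0.10, edgeR adjusted p = 0.633). Nfil3, a basic leucine zipper factor named for its regulation of interleukin 3, ranged from 37.9 to 54.7 CPM and from 34.0 to 48.5 CPM. Its log2 fold change of 0.06 ± 0.14 (edgeR adjusted p = 0.887) changed sign without WT/mut replicate 8 (-0.0213) and without WT replicate 5 (-0.0368), so the data give no direction for it. Without WT/mut replicate 7, Stat6 was at 0.13 ± 0.11 and Nfil3 at 0.04 ± 0.16.

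Cd200r1, the receptor through which CD200 restrains immune cells, was lower in every WT/mut library than in any WT library. It was measured at 62.6, 55.0, 59.6, 57.1 and 47.7 CPM in WT/mut replicates 6 to 10 and at 73.4, 75.8, 68.7 and 84.9 CPM in WT replicates 1, 3, 4 and 5. WT/mut replicate 10 was lowest and WT replicate 5 highest. The means were 56.4 ± 5.6 CPM (SD, n = 5) and 75.7 ± 6.8 CPM (SD, n = 4), 1.34-fold lower. The log2 fold change of -0.42 ± 0.11 did not pass with edgeR (adjusted p = 0.211) and passed with DESeq2 (adjusted p = 0.0271). Without WT/mut replicate 7 it was -0.42 ± 0.12 (edgeR adjusted p = 0.424). Its ligand gene Cd200 was at 134 ± 14.2 and 148 ± 17.3 CPM (SD, n = 5 and n = 4, log2 fold change -0.14 ± 0.11, edgeR adjusted p = 0.622). The related receptor gene Cd200r4 was at 1.98 ± 2.23 and 1.3 ± 0.64 CPM (SD, n = 5 and n = 4), and Cd200r2 had 12 counts over the WT/mut and 9 over the WT libraries.

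**Figure D2:**
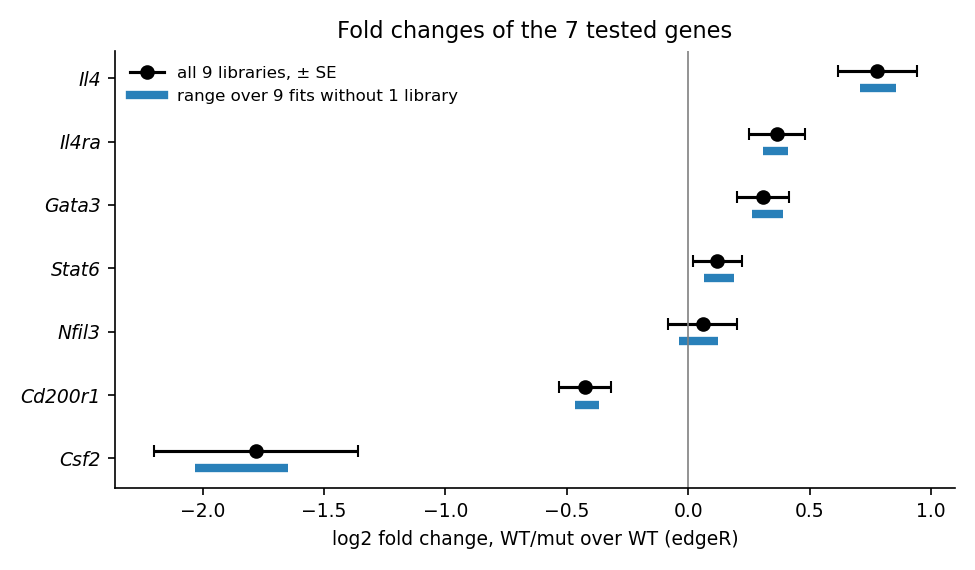
Log2 fold change of each tested gene (WT/mut over WT, edgeR, points with SE) and its range over the 9 fits that each leave out 1 library (bars). Bars stay on one side of 0 for every gene but Nfil3, from 0.71 to 0.86 for Il4 and from -2.03 to -1.65 for Csf2.

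Leaving out each library in turn gave no call of a member in any of the 9 edgeR fits. Il4 ranged from 0.71 to 0.86 (adjusted p from 0.138 to 0.287), Csf2 from -2.03 to -1.65 (adjusted p from 0.154 to 0.348), Cd200r1 from -0.47 to -0.37 (adjusted p from 0.144 to 0.424), Il4ra from 0.31 to 0.41 and Gata3 from 0.26 to 0.39. The direction of these 5 genes therefore rested on no single library.

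Levels of different genes were compared per kilobase of annotated exon. In WT cells Stat6 was highest at 85.3 ± 8.1 CPM per kb (SD, n = 4). Cd200r1 (22.6 ± 2.0), Il4 (22.1 ± 3.4), Nfil3 (21.2 ± 3.1) and Gata3 (20.7 ± 2.6) followed with ranges that overlapped from one to the next, and Il4ra (12 ± 1.1) and Csf2 (3.38 ± 0.57) were each below the range of the gene before. In WT/mut cells Il4 was second to Stat6 (92.7 ± 9.4 CPM per kb, n = 5) at 38 ± 7.1 CPM per kb, and its lowest library (31.1) was above the highest library of Gata3 (28.1). Cd200r1 came after Gata3 and Nfil3 there, its range touching that of Nfil3, at 16.8 ± 1.7 CPM per kb. The place of Il4 in WT depended on the length used. Its annotated exons add up to 1227 bases but its longest transcript has 605, and per kilobase of the longest transcript Il4 stood second in WT as well, at 44.9 CPM per kb, with no overlap with Cd200r1 (27.3).

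Ratios within a library do not depend on how libraries are scaled to each other. The log2 ratio of Il4 to Il21 counts, the latter being the other main Tfh cytokine gene, was -3.25, -3.45, -3.45, -2.82 and -3.40 in WT/mut replicates 6 to 10 and -4.93, -4.15, -4.69 and -4.62 in WT replicates 1, 3, 4 and 5. The groups were separate, and the means differed by 1.32. Both terms contributed, since Il21 averaged 448 ± 51 CPM (SD, n = 5) in WT/mut against 657 ± 104 CPM (SD, n = 4) in WT (-0.55 ± 0.12, edgeR adjusted p = 0.142). The ratio of Gata3 to Tbx21, the type 1 lineage factor, overlapped between the groups, with means of 4.05 ± 0.36 (SD, n = 5) and 3.82 ± 0.17 (SD, n = 4) on the log2 scale. So did the ratio of Il4 to Ifng, the type 1 cytokine gene, at 4.96 ± 0.53 (n = 5) and 4.47 ± 1.36 (n = 4), where WT replicate 3 was lowest at 2.44.

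Set against the summed counts of the T cell receptor genes Cd3d, Cd3e and Cd3g, the members shifted upward by a similar step. The denominator itself was lower on average in WT/mut for Cd3d (log2 fold change -0.24) and Cd3g (-0.19), with Cd3e at 0.04. The log2 ratio was higher in WT/mut by 0.95 for Il4, 0.54 for Il4ra, 0.49 for Gata3 and 0.29 for Stat6, with no overlap for these 4. It was lower by 1.66 for Csf2 (difference -1.66) with no overlap, and the difference of -0.25 for Cd200r1 came with ranges that overlapped. For Stat6 the groups all but touched, at -2.145 in WT/mut replicate 9 and -2.149 in WT replicate 1. The share of all genes separate on this ratio was not computed, so these separations have no background beside them. When edgeR was scaled to these Cd3 counts, the median of all genes moved to 0.17, and relative to it the members lay close to their values above. Il4 was at 0.96 ± 0.17 (adjusted p = 0.080) and Cd200r1 at -0.24 ± 0.11 (adjusted p = 0.334) on that scale. With Cd4 as the denominator the differences were 0.61 for Il4, 0.20 for Il4ra, 0.15 for Gata3, -0.59 for Cd200r1 and -1.99 for Csf2, and those of Stat6 (-0.0398) and Nfil3 (-0.0979, against 0.24 with the Cd3 genes) turned their sign.

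**Figure D3:**
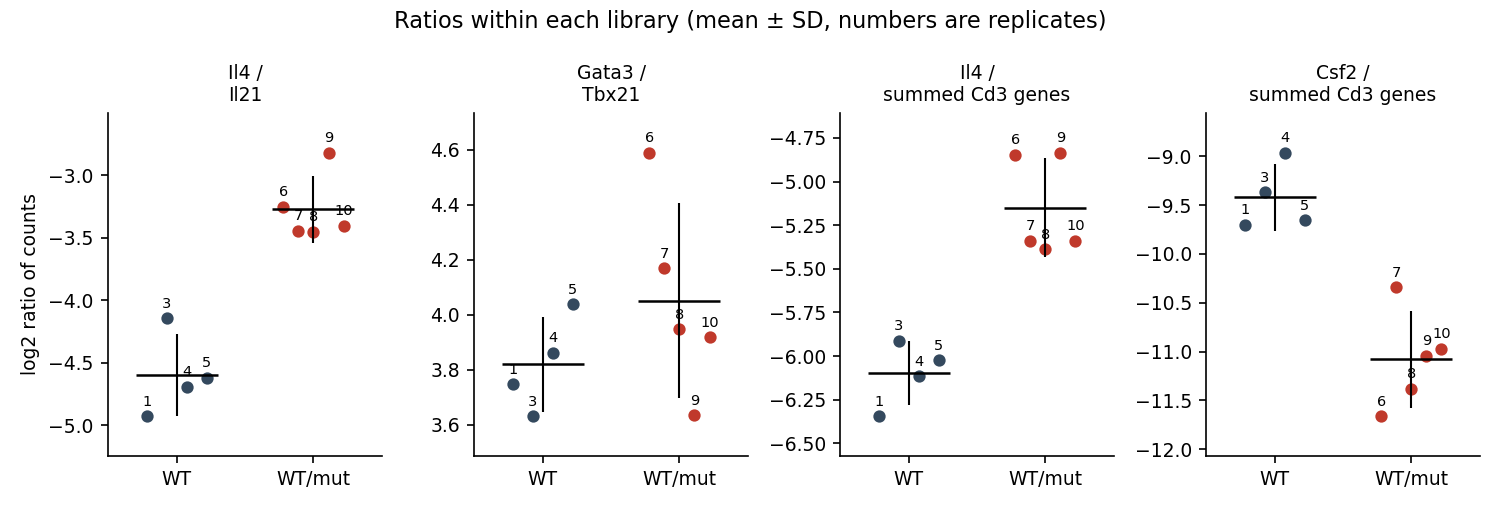
Log2 ratios of counts within each library (points, numbered by replicate), with group mean and SD, for 4 WT and 5 WT/mut libraries; the axes differ and do not start at 0. Il4 to Il21 and Il4 to the summed Cd3 genes are separate between the groups (means apart by 1.32 and 0.95), Csf2 is separate in the other direction, and Gata3 to Tbx21 overlaps.

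Within 1000 kb of the Il4 start lay 57 genes of the table, of which 21 were tested, with a median log2 fold change of 0.04. Of the 21, edgeR called 0 (0.122% over all genes) and DESeq2 called 2, Il4 and Csf2 (1.86%). At an unadjusted p under 0.05 there were 2 (12.2% over all genes), a count near the background. Those 2 were Il4 and Csf2, which went opposite ways. They were also the only 2 of the 21 whose CPM ranges did not overlap (4.46% over all genes). Both are members chosen with earlier results of these data known, so these counts do not test the locus. The kinesin gene Kif3a, at -51.3 kb from the Il4 start, was at -0.07 ± 0.14 (edgeR adjusted p = 0.856). Rad50, a DNA repair gene that holds the locus control region of the type 2 cytokines, was at -0.39 ± 0.21 (edgeR adjusted p = 0.459), and Irf1, an interferon response factor gene, at 0.09 ± 0.12 (edgeR adjusted p = 0.785). Il3, the neighbour of Csf2, had no count in any library. Of the 21 listed neighbours, 15 were tested and 0 were called by edgeR or DESeq2 or had an unadjusted p under 0.05. Slc22a5, a carnitine transporter gene (-0.33 ± 0.18), Leap2, an antimicrobial peptide gene (-1.05 ± 0.62), and Cdc42se2 (-0.12 ± 0.10) followed Rad50 by p.

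**Figure D4:**
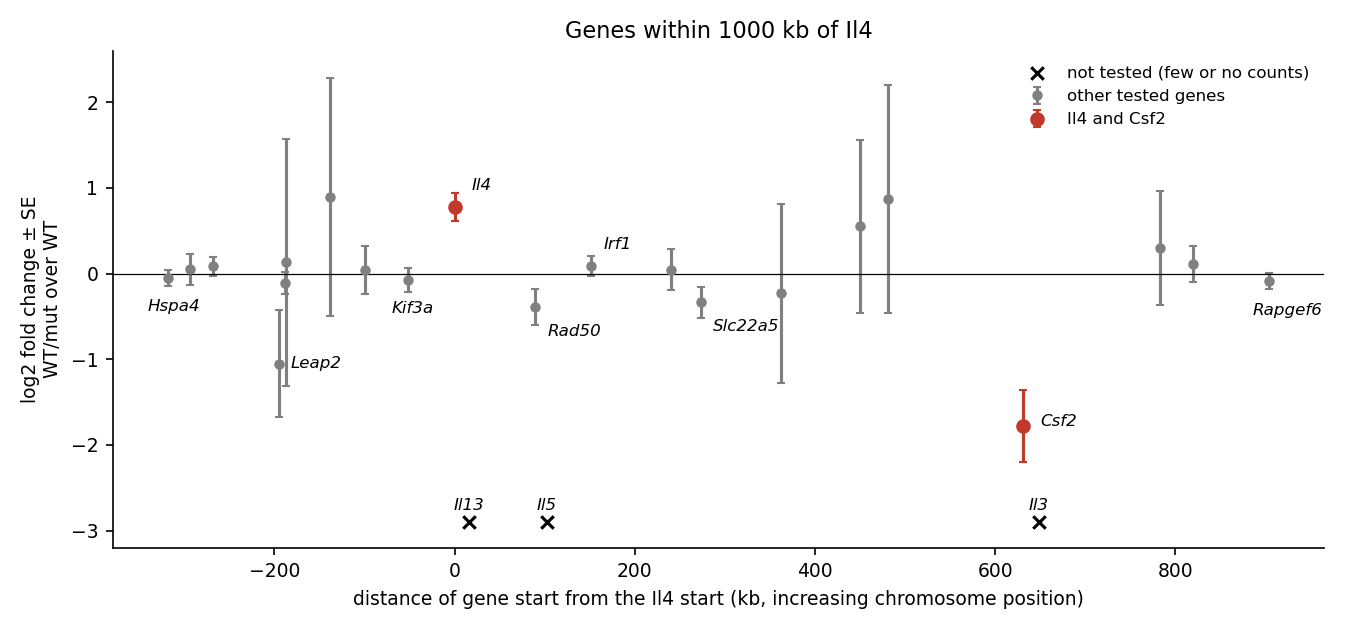
Log2 fold change (WT/mut over WT, edgeR, with SE) of the 21 tested genes within 1000 kb of the Il4 start, by distance of their starts in kb; crosses mark Il13, Il5 and Il3, which were not tested and have no value. Il4 (0.78) and Csf2 (-1.78) are in red, and of the tested genes between them Rad50 (-0.39), Irf1 (0.09) and Slc22a5 (-0.33) have errors of 0.21 or less.

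The receptor partners and signal carriers of Il4ra were not called. Of 20 listed genes 18 were tested, 0 passed with edgeR or DESeq2, 2 were higher and 2 lower at an unadjusted p under 0.05 (5.69% and 6.46% of all genes), and the median was 0.07. The kinase gene Tyk2 was at 148 ± 18.9 and 110 ± 14.6 CPM (SD, n = 5 and n = 4, 0.43 ± 0.13, edgeR adjusted p = 0.274). Il2rg, the common gamma chain that pairs with Il4ra, was at 1220 ± 151 and 1770 ± 640 CPM (SD, n = 5 and n = 4, -0.54 ± 0.20, edgeR adjusted p = 0.342). WT replicates 1 and 5 were high at 2611 and 1917 CPM, and WT replicates 3 and 4 lay within the WT/mut range of 999.9 to 1400 CPM. Il13ra1, the chain that joins Il4ra in the receptor for interleukin 13 (-0.41 ± 0.18), and the feedback inhibitor Socs2 (1.15 ± 0.52) also had an unadjusted p under 0.05. The feedback inhibitor Socs1 was at -0.23 ± 0.17 (edgeR adjusted p = 0.593).

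Of 28 factors known to act on the type 2 cytokine locus, all were tested, with 0 called by edgeR and 2 by DESeq2, against 1.86% of all genes for DESeq2. At an unadjusted p under 0.05, 3 were higher and 2 lower (5.69% and 6.46% of all genes), and the median was 0.06. Bhlhe40, an activation-induced repressor of Il10, was lower in every WT/mut library, at 57.1 to 70.2 CPM against 85.0 to 102 CPM in WT (-0.51 ± 0.10, edgeR adjusted p = 0.0922, DESeq2 adjusted p = 0.000644). The chromatin organiser gene Satb1 was at 0.45 ± 0.13 (edgeR adjusted p = 0.260, DESeq2 adjusted p = 0.0461). Ikzf1, the gene of the zinc finger factor Ikaros, was higher in every WT/mut library (142 to 163 against 99.4 to 131 CPM, 0.34 ± 0.10, edgeR adjusted p = 0.273). Notch2, a receptor whose signal can act on Il4, was also separate, at 14.0 to 22.5 against 4.88 to 12.8 CPM (0.86 ± 0.27, edgeR adjusted p = 0.279). Maf, the Il4 activator whose half-sites stand in the window shown, was at 232 ± 30.3 and 229 ± 27.2 CPM (SD, n = 5 and n = 4, 0.02 ± 0.12, edgeR adjusted p = 0.966).

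Other receptors and cytokines linked to type 2 helper responses were mostly scarce. Of 19 listed genes 11 were tested, with 0 called by edgeR or DESeq2 and 0 at an unadjusted p under 0.05, and the median was -0.28. Those of lowest p were Tnfsf11 (-0.28 ± 0.13), the chemokine receptor gene Ccr8 (-0.31 ± 0.19), Tnf (-0.34 ± 0.21) and Il33 (-1.71 ± 1.39), with edgeR adjusted p from 0.423 to 0.617. Of these, Il33 was scarce, at 0.254 ± 0.339 and 0.827 ± 0.86 CPM (SD, n = 5 and n = 4). Il3, Il9, Il24 and Il31 had no count in any library, and Il1rl1, the receptor for interleukin 33, stood at 0.987 ± 0.794 and 1.58 ± 1.5 CPM (SD, n = 5 and n = 4).

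Among partners and relatives of the members, 16 of 20 genes were tested and 0 were called by edgeR or DESeq2, with 1 higher and 2 lower at an unadjusted p under 0.05 (5.69% and 6.46% of all genes) and a median of 0.11, so the count higher was near the background. Nr1d1, a repressor of Nfil3, was lower in every WT/mut library (1.79 to 3.31 against 3.43 to 5.76 CPM, -0.88 ± 0.31, edgeR adjusted p = 0.323). Per1 was higher in every one (8.99 to 12.9 against 2.91 to 7.77 CPM, 0.82 ± 0.29, edgeR adjusted p = 0.329), and Tef was at -0.21 ± 0.09 (edgeR adjusted p = 0.407). Other clock and clock output genes of the list did not reach an unadjusted p under 0.05, with Dbp at -0.20 ± 0.16, Nr1d2 at -0.21 ± 0.17, Hlf at 1.07 ± 1.04 and Per2 at 0.13 ± 0.30. Stat4, the type 1 relative of Stat6, was also separate (368 to 388 against 288 to 368 CPM, 0.16 ± 0.09, edgeR adjusted p = 0.472), and the GM-CSF receptor genes Csf2ra (-0.12 ± 0.28) and Csf2rb (0.50 ± 0.72) did not pass.

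Among 9 other helper outputs and factors, 8 were tested, with 0 called by edgeR and 1 by DESeq2 (Il21), against 1.86% of all genes for DESeq2. At an unadjusted p under 0.05, 1 was higher and 2 lower (5.69% and 6.46% of all genes), and the median was 0.13. Besides Il21, these were Prdm1, a factor that opposes the Tfh programme and is also one of the plasma cell markers, 7 of 11 of which were higher at that level (0.94 ± 0.30, edgeR adjusted p = 0.287), and Cd40lg, the B cell help ligand (-0.28 ± 0.11, edgeR adjusted p = 0.368). The T cell growth factor gene Il2 followed by p, at 0.446 ± 0.183 and 0.129 ± 0.106 CPM (SD, n = 5 and n = 4, 1.74 ± 0.82, edgeR adjusted p = 0.421). Tbx21 was at 0.08 ± 0.25 and Ifng at -0.32 ± 0.69.

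**Figure D5:**
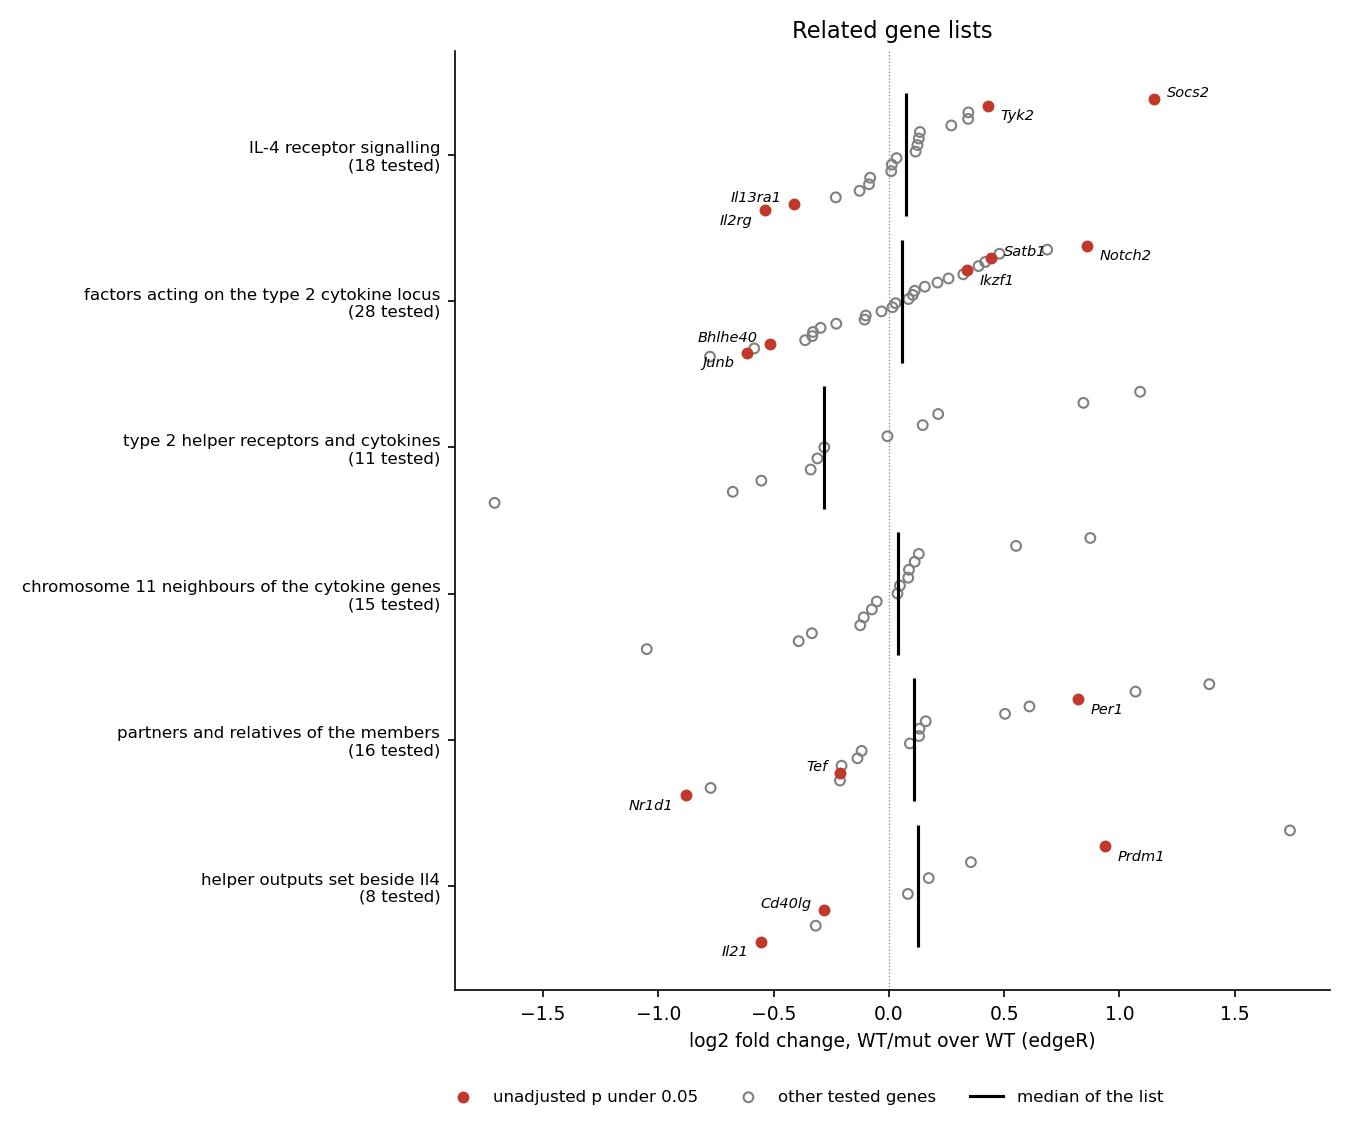
Log2 fold change (WT/mut over WT, edgeR) of every tested gene in the 6 related lists, each point a gene, with the median of the list as a bar. Named red points had an unadjusted p under 0.05, and no gene passed after adjustment over all genes.

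Likeness to Il4 was measured as the mean absolute difference, over the 9 libraries, between log2 CPM values standardised for each gene. Among protein-coding genes, with predicted genes and receptor or antibody segments left out, the closest were Zfp426 (0.197 SD units), Phf5a (0.243), Hnrnpc (0.264), Dock10 (0.267) and Trim12c (0.271). Each was higher on average in WT/mut, from 0.14 ± 0.10 for Phf5a to 0.60 ± 0.18 for Trim12c on the log2 scale, and none was called. Among the members Il4ra (0.627) and Gata3 (0.642) were nearest to Il4, at ranks 1024 and 1164 of all tested genes, so over 1000 genes followed the pattern of Il4 more closely than its own receptor gene did. Csf2 (1.68) and Cd200r1 (1.62) were among the genes farthest from it, at ranks 15496 and 15433 of 15521.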

How the data were processed

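Messenger RNA of sorted Tfh cells was sequenced in 9 libraries from 300 pg of RNA each with a SMART-Seq kit that does not mark the strand, per the labels' protocols. The authors deposited expected counts per gene (estimated, 11.1% to 18.3% of values per library not whole). The submitters' processing notes name the mm10 build and DESeq2, RSEM 1.3.0, STAR 2.5.3 and cutadapt 2.10, without an annotation release. Groups came from sample titles, and columns were matched by their replicate numbers.

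Counts were rounded. In R 4.3.3, genes passing filterByExpr (minimum count 10, minimum total 15) were tested with edgeR 4.0.16 (TMM, robust quasi-likelihood fit, 5 against 4 libraries, no covariate) and adjusted by Benjamini-Hochberg over all of them. SE is the absolute log2 fold change over the square root of F. CPM uses TMM-scaled library sizes, ratios add 0.5 counts, and likeness used a prior count of 2. Lengths came from GENCODE M21, in which 52480 of 54146 identifiers were found. Alternatives were DESeq2 1.42.0, limma-voom 3.58.1 (also with library weights), other filters and size factors, marker or detection covariates, scaling to Cd3 counts and leaving out each library. The edgeR test was tested on simulated counts with known changes.

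The members and lists were chosen with earlier results of these data known. Named genes are the members, Tgfbr1 and the 4 tested genes of lowest p of each list. They also include Il21, Tbx21, Ifng, Rad50, Kif3a, Irf1, Il3 and the 5 protein-coding genes most like Il4. Others, such as Maf, Dbp, Nr1d2, Hlf, Per2, single markers, Socs1, Cd200, Il1rl1, the Cd3 genes and the genes without counts, were chosen after their values were seen. The RefSeq promoter table held 8 of the 9 members. The windows of Csf2, Il4ra, Gata3, Stat6 and Nfil3 are not shown, and that of Csf2 starts 232 bases before the GENCODE start. A gene of the helper outputs list is not reported here and was left out of that list.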

Additional observations from a re-analysis of the deposited data

Results flagged for a closer look

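In WT/mut replicate 6, Il5 stood at 0.872 CPM (29 counts) while the other 4 WT/mut libraries were at 0, so this library lay far from the rest of its group. In WT/mut replicate 7, Il13 stood at 0.0314 CPM, which is 1 count and under the floor of 3. Any single count in a group otherwise at 0 is marked by this comparison, and how often chance marks such groups was not tested.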

How the results depend on the processing

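Directions of Il4, Il4ra, Gata3, Stat6, Cd200r1 and Csf2 were the same in all 22 alternatives. Of 154 alternative fold changes of members, 147 kept direction and call, 3 became calls (DESeq2) and 4 changed sign, all for Nfil3: -0.0714 with the plasma cell marker share as covariate, -0.137 with that share without Ighm, -0.0213 without WT/mut replicate 8 and -0.0368 without WT replicate 5, the lowest of the fits without 1 library, whose highest was 0.125. Over all alternatives the adjusted p of Il4 ran from 0.0014 to 1, that of Csf2 from 0.00803 to 1 and that of Cd200r1 from 0.0271 to 1, the upper end being the fit without Ighm. DESeq2 called 3 members and, in the related lists, 3 genes (Bhlhe40, Il21 and Satb1), and limma-voom with library weights called 1 of those (Bhlhe40).

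Over all genes, edgeR called 19 (5 higher, 14 lower), DESeq2 288 (153 higher, 135 lower), limma-voom with library weights 29, library size alone 22 (8 higher, 14 lower), each of the covariates detected genes and plasma cell marker share 1, and, both chosen after the data were seen, scaling to Cd3 counts 2 and the plasma cell share without Ighm 0. Without 1 library the count ran from 2 to 23. It was 2 without WT/mut replicates 6 or 7 or WT replicate 3, 4 without WT/mut replicate 9, 5 without 8 or 10, 6 without WT replicate 1, 8 without WT replicate 5 and 23 without WT replicate 4. The cause was not tested.

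Length per longest transcript moved 10 of 14 levels, and Cd4 as denominator moved 4 of 7 ratios by more than the spread and turned Stat6 (-0.0398) and Nfil3 (-0.0979). No paired analysis was possible because the labels give no litter or other pairing of the libraries, and the groups share no replicate number. Csf2, Il5 and Il13 had few counts per library, and whether depth limits them was not tested.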

Other observations

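WT/mut replicate 7, with 30143 detected genes, held counts of genes that were at or near 0 elsewhere. The NKT cell receptor segment Trav11 had 95 counts there and none in the other 8 libraries, and the basophil and mast cell receptor gene Ms4a2 had 65 and none. The dendritic cell gene Clec9a had 97 counts there, 4 in WT/mut replicate 9 and none elsewhere. These genes were chosen after their values were seen.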
